A study of Homo sapiens with 30 samples.

Results

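The fibrinogen chain genes FGA, FGB and FGG were taken as the rows of the deposited count table whose Ensembl identifiers map to these symbols. They are 3 of the 60675 genes in the table, and all 3 passed the filter on low counts that left 17461 genes. RNA was sequenced from 30 libraries of A549 cells, an established human lung carcinoma line kept as a model of the airway lining. Before RNA was taken, cells spent 24 h in medium with vehicle or with 1 of 4 Korean herbal formulas, each extracted in ethanol. Soshiho-tang, Yijin-tang, Okbyeongpung-san and Soyo-san were given at 20, 100 and 500 µg/mL. A dose had 3 libraries for the first pair, 2 for Okbyeongpung-san and 1 for Soyo-san. Vehicle had 3 libraries of cells given dimethyl sulfoxide (DMSO), at 0.1% per the labels and at 2% in the series text. The genes were chosen by their shared movement in earlier results of these data, across vehicle and every extract and dose, so their values against vehicle, between doses of an extract and with Soshiho-tang at 500 µg/mL are described with no test. Tests were kept to the other comparisons between extracts at a matched dose and the differences of dose changes between extracts. These too use libraries in which the genes were chosen, so their p-values are no independent support for a change of the chains. No label ties a replicate to a culture of its own, and p-values hold only for the spread between these libraries, part of which may be technical.

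Fibrinogen is the soluble plasma protein that thrombin turns into fibrin, the mesh of a blood clot. FGA, FGB and FGG encode its Aα, Bβ and γ chains, which are joined by disulfide bonds in the endoplasmic reticulum into a molecule made of a pair of each chain. The liver is its main source, where the chains are induced together in the acute phase by interleukin-6, through STAT3 and C/EBP factors and with glucocorticoids as helpers. Lung epithelial cells, A549 among them, can also make fibrinogen.

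The genes lie side by side on the long arm of chromosome 4 (GRCh38, GENCODE release 29), over 50012 bases. FGB (ENSG00000171564, chr4:154562956-154571086) is on the plus strand, and its main transcript of 1975 bases has 8 exons. FGA (ENSG00000171560, chr4:154583126-154590766) starts 12039 bases further on, on the minus strand, and its main transcript of 3678 bases has 6 exons. FGG (ENSG00000171557, chr4:154604134-154612967) lies another 13367 bases away, also on the minus strand, with a main transcript of 1760 bases and 10 exons. No other annotated gene overlaps the cluster. Main transcripts are those marked principal in the annotation, and which forms A549 cells made was not measured.

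The promoter sequences are shown because the chains moved together in these data, as the values below give, and the letters let the 3 start sites be compared. Each line gives the 250 bases before the RefSeq start of transcription (GRCh38.p14), 5′ to 3′ in the direction of the gene, with matches to the motifs searched in capitals.
FGB (chr4:154562730-154562979, plus strand): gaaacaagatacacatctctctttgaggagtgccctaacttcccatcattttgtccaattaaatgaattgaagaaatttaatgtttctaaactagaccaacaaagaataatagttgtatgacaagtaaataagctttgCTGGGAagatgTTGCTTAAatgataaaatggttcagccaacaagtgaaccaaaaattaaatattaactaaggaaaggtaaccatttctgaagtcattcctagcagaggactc
FGA (chr4:154590743-154590992, minus strand): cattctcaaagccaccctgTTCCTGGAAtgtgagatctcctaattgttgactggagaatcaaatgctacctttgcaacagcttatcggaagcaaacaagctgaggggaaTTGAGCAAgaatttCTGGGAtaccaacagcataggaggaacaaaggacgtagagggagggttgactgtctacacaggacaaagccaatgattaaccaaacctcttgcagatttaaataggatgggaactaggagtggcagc
FGG (chr4:154612657-154612906, minus strand): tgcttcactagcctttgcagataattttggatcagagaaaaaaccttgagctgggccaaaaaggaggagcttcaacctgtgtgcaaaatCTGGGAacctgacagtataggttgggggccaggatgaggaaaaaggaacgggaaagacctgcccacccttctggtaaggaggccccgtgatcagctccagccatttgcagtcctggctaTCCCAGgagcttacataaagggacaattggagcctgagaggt
Motifs were searched on both strands, and the share of the 35116 RefSeq promoters of the same length that hold each is given beside it. The C/EBP letters TTGCNNAA, held by 9.05%, were found in FGB at 101 to 94 and in FGA at 141 to 134 bases before the start. The STAT letters TTCNNNGAA, held by 6.57%, were found in FGA at 231 to 223 bases before the start. CTGGGA, the core of the element through which interleukin-6 acts on fibrinogen genes, was found in FGB at 112 to 107, in FGA at 127 to 122 and in FGG at 161 to 156 and, on the other strand, 42 to 37 bases before the start, and 28.7% of promoters hold it. The glucocorticoid receptor letters TGTTCT, held by 12.4%, were in none of the 3 windows. These matches describe the letters and are not binding sites. RefSeq lists a further FGB start a little downstream, whose window holds the same matches.

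Libraries held 19833144 to 38008463 counts, and those of vehicle held 19833144 to 22327652, fewer than any treated library. Mitochondrially encoded messenger RNA (mRNA) made up 10.5% to 10.9% of the counts in vehicle and 6.22% to 9.89% in treated libraries. Replicate 2 of Okbyeongpung-san at 500 µg/mL had both the most counts and the highest treated mitochondrial share. The titles put 6 libraries in batch D, namely all 3 of Soyo-san and the Okbyeongpung-san libraries numbered 3, and the others in batch E. Of the lung epithelial markers, KRT7, KRT8 and KRT18 stood at 1901 to 3860 counts per 1000000 (CPM) in treated libraries, while the surfactant genes and NKX2-1 had at most 7 counts. ABCA3, the lipid transporter of alveolar type 2 cells, was at 22.1 to 37.1 CPM in treated libraries, and LPCAT1, an enzyme of surfactant lipid synthesis, at 55.7 to 71.6 CPM. So the epithelial keratins fitted the label, 8 of 14 lung markers passed the filter, and the surfactant protein genes and NKX2-1 were at or near 0.

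Defining hepatocyte markers were at or near 0 beside the fibrinogen chains. ALB (serum albumin) had at most 2 counts in a library, TTR (transthyretin) at most 2, and APOA2 none. Of 12 hepatocyte markers 4 passed the filter, and HNF4A, a transcription factor of liver and gut, made up most of their summed level. That sum was 61.5 to 68.1 CPM with Soshiho-tang at 500 µg/mL and 98.5 to 103.5 CPM at 20 µg/mL, 80.9 to 82.7 CPM with Yijin-tang at 500 µg/mL and 98.1 to 104.9 CPM at 20 µg/mL, and 93.2 to 98.8 CPM in vehicle. It thus moved with the chains, and its part in them was not tested. Of 7 immune markers 3 passed the filter, with CD68 at up to 636 counts in a library, CD14 at up to 162 and ITGAM at up to 54. The sum of the 7 was 13.7 to 18.9 CPM with Soshiho-tang at 500 µg/mL and 12.7 to 15.0 CPM at 20 µg/mL, and 15.8 to 18.6 CPM in vehicle. PTPRC, the defining leukocyte marker, had at most 1 count, and CD3E none. Of 6 markers of megakaryocytes, the cells that make platelets, 3 passed, GP1BA at up to 193 counts and ITGA2B at up to 93, while GP9 had none. Of 7 fibroblast markers 4 passed, and their summed level was 22.3 to 27.2 CPM with Soshiho-tang at 500 µg/mL and 31.1 to 36.5 CPM at 20 µg/mL, but 33.5 to 38.7 CPM with Yijin-tang at 500 µg/mL and 29.1 to 35.2 CPM at 20 µg/mL. COL1A1 made up most of it, and its part in the chains was not tested. No endothelial marker passed.

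All 3 chains were abundant messengers in A549 cells. FGA had 2828 to 7643 counts in a library, FGB 2850 to 8776 and FGG 2398 to 5563. Per kilobase of main transcript, vehicle cells held 51.7 ± 1.32 CPM of FGA, 113 ± 4.49 CPM of FGB and 74.7 ± 1.90 CPM of FGG (SD, n = 3). Over the 30 libraries FGB was at 2.04 ± 0.109 and FGG at 1.56 ± 0.102 times the level of FGA on this per-length scale (SD). The order of FGB above FGG above FGA held with main, coding and longest transcript lengths. For FGA the main transcript is also the longest, and none of these lengths is that of its shorter transcript. The place of FGG depended on the length used, since with the union of exons its ratio to FGA was 0.822, and with the shorter FGA transcript of 2248 bases it was 0.956.

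**Figure D1:**
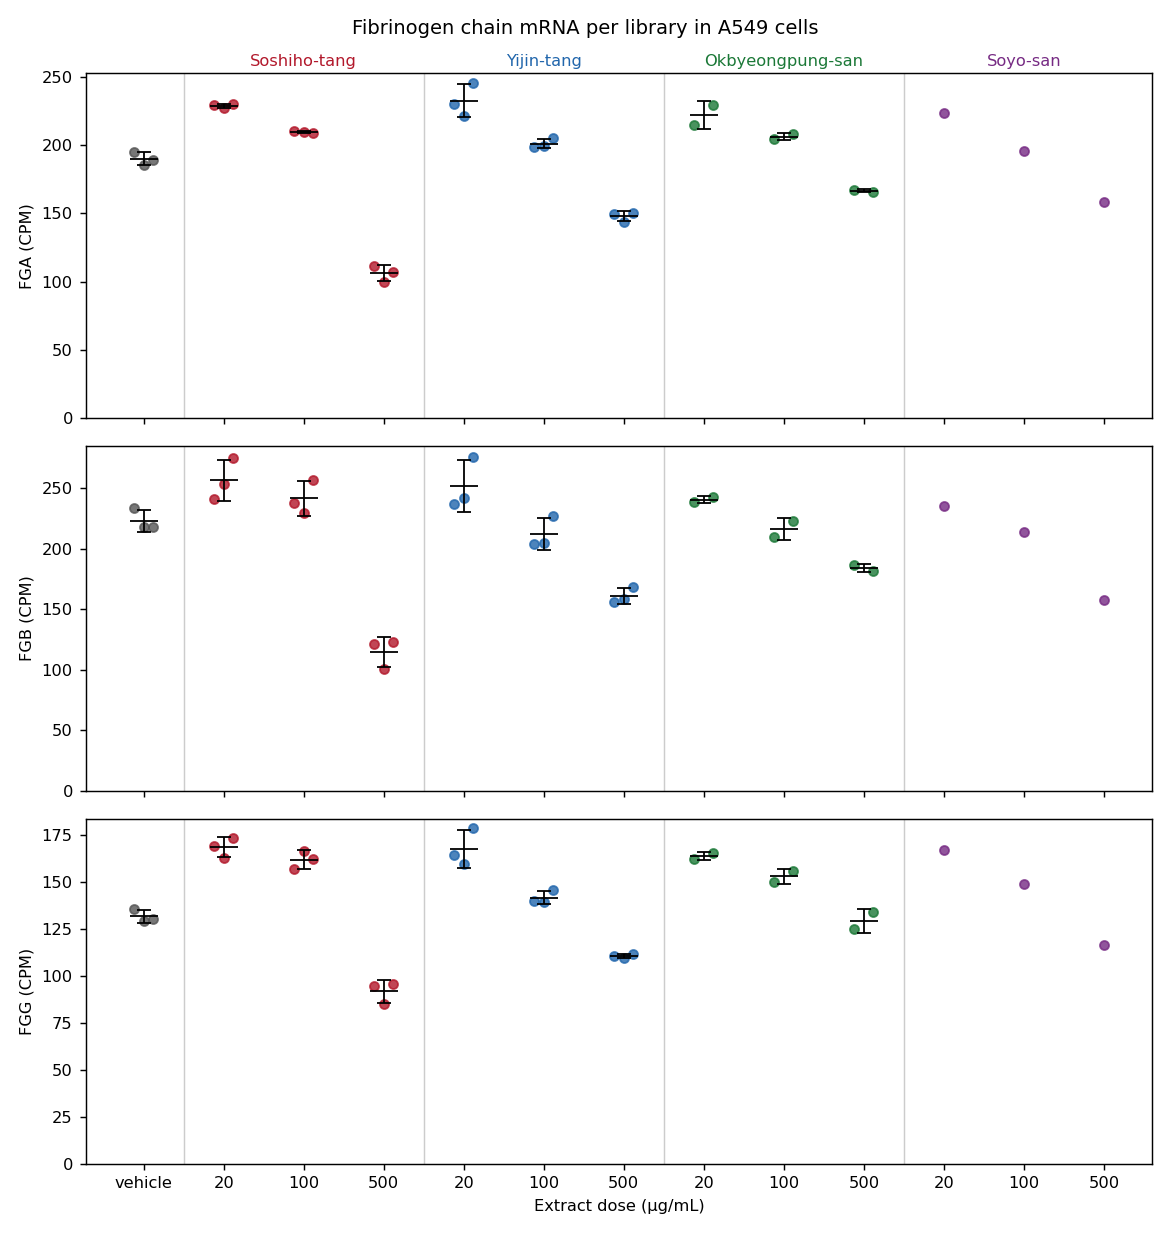
Level of FGA, FGB and FGG (CPM, axes from 0) in each library of A549 cells by extract and dose in µg/mL. Points are libraries, and black bars give the mean and SD where a group has 2 or 3. In each extract the 500 µg/mL points lie lowest, down to 99.96 CPM for FGA with Soshiho-tang, and the 20 µg/mL points lie above vehicle.

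FGA, the chain whose amino-terminal fibrinopeptide A thrombin cleaves first, was lowest with Soshiho-tang at 500 µg/mL. Vehicle libraries held 195.3, 185.7 and 189.1 CPM. With Soshiho-tang it was at 229.7, 227.3 and 229.9 CPM at 20 µg/mL, at 210.6, 209.3 and 208.9 CPM at 100 µg/mL and at 111.5, 99.96 and 106.8 CPM at 500 µg/mL. With Yijin-tang it was at 230.3, 221.5 and 245.4 CPM at 20 µg/mL, at 198.6, 199.6 and 205.1 CPM at 100 µg/mL and at 149.5, 143.5 and 150.3 CPM at 500 µg/mL. No library of a higher dose overlapped one of a lower dose in either extract. With Okbyeongpung-san FGA was at 214.6 and 229.5 CPM at 20 µg/mL, at 204.4 and 207.9 CPM at 100 µg/mL and at 167.3 and 165.7 CPM at 500 µg/mL. The single Soyo-san libraries held 223.4, 195.5 and 158.7 CPM at 20, 100 and 500 µg/mL. The 3 vehicle libraries lay below each library of 20 and 100 µg/mL, by less than 1 CPM in the case of Soyo-san at 100 µg/mL, and above each of 500 µg/mL.

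FGB, which carries fibrinopeptide B and is often taken as the chain that limits assembly in liver cells, had the widest spread between replicates at each dose of Soshiho-tang and Yijin-tang. Vehicle libraries held 233.3, 218.3 and 217.7 CPM. With Soshiho-tang it was at 241.3, 253.7 and 274.6 CPM at 20 µg/mL, at 237.6, 229.7 and 257.1 CPM at 100 µg/mL and at 121.1, 100.7 and 122.8 CPM at 500 µg/mL. With Yijin-tang it was at 236.6, 242.0 and 276.0 CPM at 20 µg/mL, at 204.3, 204.9 and 227.2 CPM at 100 µg/mL and at 156.1, 158.7 and 168.6 CPM at 500 µg/mL. The lowest 2 doses overlapped with Soshiho-tang and did not with Yijin-tang. With Okbyeongpung-san FGB was at 238.5 and 242.4 CPM at 20 µg/mL, at 209.7 and 222.6 CPM at 100 µg/mL and at 186.3 and 181.5 CPM at 500 µg/mL. Soyo-san gave 235.2, 214.0 and 157.5 CPM in the same order of doses. Vehicle libraries overlapped those of 100 µg/mL in the 3 replicated extracts.

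FGG, whose carboxy-terminal end binds the platelet integrin αIIbβ3, was the chain furthest above vehicle at low doses. Vehicle libraries held 135.3, 129.2 and 129.9 CPM. With Soshiho-tang it was at 168.8, 162.7 and 173.3 CPM at 20 µg/mL, at 156.6, 166.4 and 162.0 CPM at 100 µg/mL and at 94.68, 84.76 and 95.61 CPM at 500 µg/mL. With Yijin-tang it was at 164.0, 159.5 and 178.6 CPM at 20 µg/mL, at 139.6, 139.4 and 145.5 CPM at 100 µg/mL and at 110.6, 109.5 and 111.5 CPM at 500 µg/mL. The Yijin-tang libraries at 500 µg/mL were the most alike of any group for FGG, within 2 CPM of each other. With Okbyeongpung-san FGG was at 162.2 and 165.2 CPM at 20 µg/mL, at 150.0 and 155.7 CPM at 100 µg/mL and at 124.6 and 133.8 CPM at 500 µg/mL. Soyo-san gave 166.7, 148.6 and 116.3 CPM in the same order. Vehicle libraries lay among those of Okbyeongpung-san at 500 µg/mL and below every 20 and 100 µg/mL library.

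From lowest to highest mean, FGA ran from Soshiho-tang 500 through Yijin-tang 500, Soyo-san 500 and Okbyeongpung-san 500 to vehicle, then to the 100 and 20 µg/mL groups. Neighbours in that order did not overlap up to Yijin-tang 100, whose libraries overlapped those of Okbyeongpung-san 100, and overlaps followed among the 20 µg/mL groups. FGB had the same group lowest, but Soyo-san 500 lay within the Yijin-tang 500 libraries, and Yijin-tang 100, Soyo-san 100, Okbyeongpung-san 100 and vehicle overlapped one another in turn. For FGG the only overlap below Soshiho-tang 100 was between Okbyeongpung-san 500 and vehicle. These orders describe the levels, since the genes had been picked for this pattern. Soyo-san has libraries of batch D only, and vehicle, Soshiho-tang and Yijin-tang of batch E only. Extract and batch cannot be told apart where Soyo-san is ranked among them.

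The doses were ordered alike in the replicated extracts. All libraries of 500 µg/mL were below all of 100 µg/mL in 9 of 9 pairs of chain and extract, where 16%, 4.43% and 19.7% of all genes tested did the same with Soshiho-tang, Yijin-tang and Okbyeongpung-san. All libraries of 100 µg/mL were below all of 20 µg/mL in 7 of 9 pairs, the exceptions being FGB and FGG with Soshiho-tang, where 3.45%, 3.35% and 14.9% of all genes did so. Both steps together were met by 0.727%, 0.355% and 2.52% of all genes. The counts of 9 and 7 stayed under unadjusted library totals, median-of-ratios scaling and totals without mitochondrial genes. Leaving out the batch D libraries or replicate 2 of Okbyeongpung-san at 500 µg/mL could not change them. Groups that do not overlap stay apart with fewer libraries, and the exceptions, which are with Soshiho-tang, lose no library. In bulk RNA, fewer cells that make fibrinogen and less of its mRNA per cell cannot be told apart.

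The libraries of Yijin-tang at 500 µg/mL were set against those at 20 µg/mL, which sets the highest dose against the lowest without the vehicle libraries. FGA averaged 148 ± 3.71 CPM at 500 µg/mL and 232 ± 12.1 CPM at 20 µg/mL (SD, n = 3 each), a log2 fold change of −0.65 ± 0.05 (SE from edgeR's quasi-likelihood fit, as all SE of log2 fold changes below). FGB averaged 161 ± 6.59 CPM and 252 ± 21.4 CPM, a log2 fold change of −0.64 ± 0.07. FGG averaged 110.5 ± 0.954 CPM and 167 ± 10.0 CPM, a log2 fold change of −0.60 ± 0.05. All 3 chains were thus lower at the high dose, FGG by the least. In all 3 the libraries of both doses did not overlap, as for 5.81% of all genes in the lower direction. Of the 17461 genes tested 0.704% were called (an adjusted p below 0.05) in either direction and 0.418% were called lower. With 1 library left out the log2 fold changes ran from −0.69 to −0.61 for FGA, from −0.69 to −0.57 for FGB and from −0.63 to −0.55 for FGG.

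With Okbyeongpung-san the chains at 500 µg/mL were nearer to those at 20 µg/mL. FGA averaged 167 ± 1.14 CPM at 500 µg/mL and 222 ± 10.5 CPM at 20 µg/mL (SD, n = 2 each), a log2 fold change of −0.42 ± 0.06. FGB averaged 184 ± 3.37 CPM and 240.5 ± 2.78 CPM, a log2 fold change of −0.39 ± 0.09. FGG averaged 129 ± 6.50 CPM and 164 ± 2.11 CPM, a log2 fold change of −0.34 ± 0.06. Libraries of both doses did not overlap in any chain, as for 19.7% of all genes in the lower direction. Of all genes 1.59% were called in either direction and 0.613% were called lower. Without replicate 2 at 500 µg/mL, which stands apart, FGA gave −0.42, FGB −0.40 and FGG −0.29. Without the batch D libraries, which leaves 1 library a dose, FGA gave −0.35, FGB −0.34 and FGG −0.37. The number of genes called turned on single libraries far more than the chains did, since the 278 became 44 without replicate 2 and 4060 without replicate 3 at 500 µg/mL, and 61 and 39 without replicate 2 and replicate 3 at 20 µg/mL.

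Whether the change between 500 and 20 µg/mL differed between these extracts was tested with an interaction term. The log2 fold change was lower with Yijin-tang than with Okbyeongpung-san by −0.24 ± 0.07 for FGA, −0.26 ± 0.11 for FGB and −0.26 ± 0.08 for FGG. None was called (adjusted p = 0.2194, 0.4019 and 0.2389 by edgeR's quasi-likelihood test with Benjamini-Hochberg adjustment over all genes, as all adjusted p below), where 0.16% of all genes were. At 500 µg/mL itself every Yijin-tang library was below every Okbyeongpung-san library in each chain, as for 11.4% of all genes in the lower direction. FGG differed by −0.23 ± 0.06 (adjusted p = 0.03254), where 2.31% of all genes were called and 1.45% called lower. FGA gave −0.18 ± 0.05 (adjusted p = 0.06411) and FGB −0.19 ± 0.08 (adjusted p = 0.1981). The FGG call was lost when any 1 of the 5 libraries was left out (adjusted p from 0.0739 to 0.107). The 404 genes called there became 39 without replicate 2 and 4132 without replicate 3 of Okbyeongpung-san, and 165 and 117 without replicate 2 and replicate 3 of Yijin-tang.

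**Figure D2:**
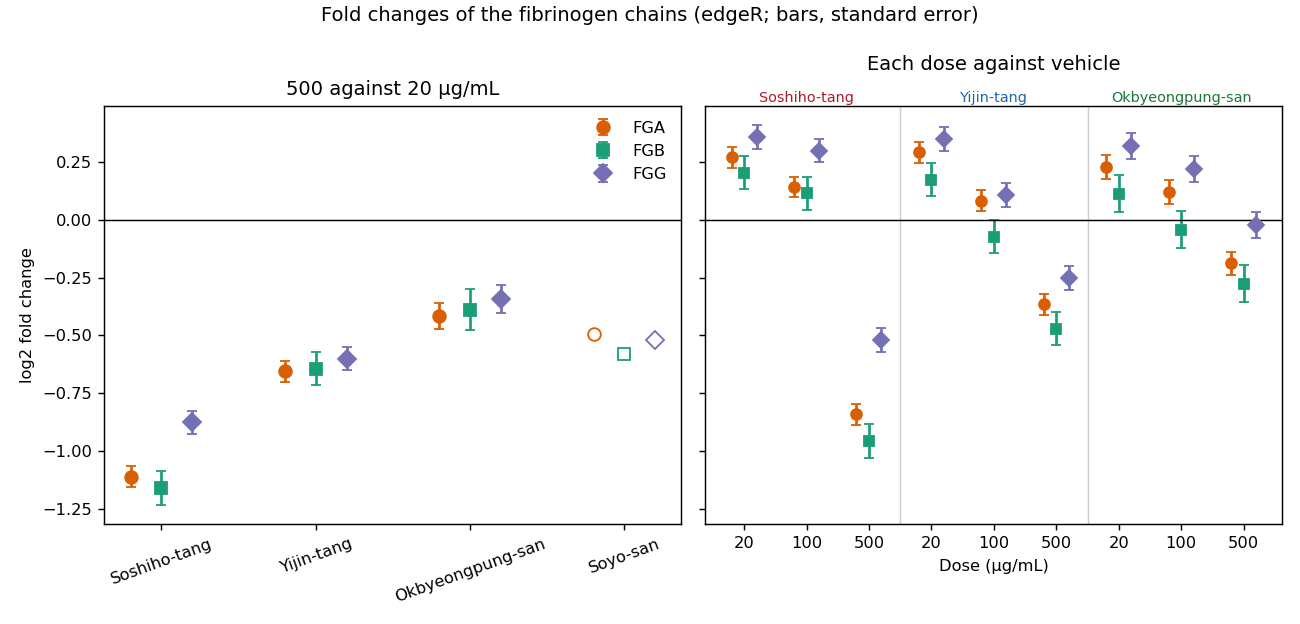
Log2 fold changes of FGA, FGB and FGG, with SE bars from edgeR: left, 500 against 20 µg/mL of each extract; right, each dose against vehicle. Open symbols of Soyo-san are differences between single libraries, with no error. At left all 12 values are below 0, from −1.16 for FGB with Soshiho-tang to −0.34 for FGG with Okbyeongpung-san, and at right the 20 µg/mL values are above 0.

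Soshiho-tang at 500 µg/mL had the lowest level of each chain, FGA averaged 106 ± 5.79 CPM at 500 µg/mL and 229 ± 1.44 CPM at 20 µg/mL (SD, n = 3 each), a log2 fold change of −1.11 ± 0.05 (SE), or 2.16-fold lower. FGB averaged 115 ± 12.3 CPM and 257 ± 16.8 CPM, with −1.16 ± 0.07, or 2.23-fold lower. FGG averaged 91.7 ± 6.01 CPM and 168 ± 5.36 CPM, with −0.88 ± 0.05, or 1.84-fold lower. FGG was thus the least far below. In this comparison 20.5% of all genes were called, and the libraries of 19.8% did not overlap in the lower direction. At 500 µg/mL Soshiho-tang was also below Yijin-tang, by −0.48, −0.49 and −0.27 for FGA, FGB and FGG, and below Okbyeongpung-san, by −0.65, −0.68 and −0.49 on the log2 scale, with no overlap of libraries. In these comparisons 12.6% and 18.7% of all genes were called, and 16.9% and 18.2% did not overlap in the lower direction.

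The Soyo-san libraries, 1 a dose, followed the same order with no replicate to check it. Between 500 and 20 µg/mL FGA differed by −0.49, FGB by −0.58 and FGG by −0.52 on the log2 scale, which is 1.41-fold, 1.49-fold and 1.43-fold lower. Of all genes 13.2% were at least 1.2-fold lower in this pair of libraries. Between 100 and 20 µg/mL the differences were −0.19, −0.14 and −0.17.

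The step between 20 and 100 µg/mL was small. With Yijin-tang FGA gave −0.21 ± 0.04, FGB −0.25 ± 0.07 and FGG −0.24 ± 0.05 on the log2 scale, where 0.0229% of all genes were called. This fit took no account of replicate numbers. With Soshiho-tang the values were −0.13, −0.09 and −0.06 and with Okbyeongpung-san −0.11, −0.16 and −0.10. edgeR called 0 genes in either comparison, where 422 and 294 had an unadjusted p below 0.05, and DESeq2 called 0 and 1. No difference in this step between extracts was called for a chain (adjusted p = 1 in each of 9 tests).

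Between extracts at matched lower doses no chain was called. Of all genes 0.00573% were called between Soshiho-tang and Yijin-tang at 20 µg/mL, 0.0172% between Soshiho-tang and Okbyeongpung-san, and 0% between Yijin-tang and Okbyeongpung-san and in each pair at 100 µg/mL. At 20 µg/mL the 3 replicated extracts overlapped in every chain, and the 9 log2 differences lay between −0.02 and 0.09. At 100 µg/mL all Soshiho-tang libraries were above all Yijin-tang libraries in each chain, as for 3.9% of all genes in the higher direction. FGG differed there by 0.19 ± 0.05 (adjusted p = 0.9592), FGB by 0.19 ± 0.07 and FGA by 0.06 ± 0.04 (adjusted p = 1 for both). All Soshiho-tang libraries were also above all Okbyeongpung-san libraries in each chain, as for 11.5% of all genes in the higher direction, by 0.02 to 0.16 (adjusted p = 0.9939 for each). At 100 µg/mL edgeR called 0 genes in each of the 3 pairs of extracts, where 671, 821 and 796 had an unadjusted p below 0.05 and DESeq2 called 6, 3 and 4 (Soshiho-tang against Yijin-tang, Soshiho-tang against Okbyeongpung-san and Yijin-tang against Okbyeongpung-san).

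Against vehicle, low doses were above and the highest dose below, which is given as a description. At 20 µg/mL all libraries of each replicated extract were above all vehicle libraries in all 3 chains, as for 16.9%, 16.4% and 25.3% of all genes in the higher direction with Soshiho-tang, Yijin-tang and Okbyeongpung-san. The log2 fold changes with Soshiho-tang were 0.27 ± 0.05 for FGA, 0.20 ± 0.07 for FGB and 0.36 ± 0.05 for FGG. With Yijin-tang they were 0.29, 0.17 and 0.35, and with Okbyeongpung-san 0.23, 0.11 and 0.32. FGG had the largest and FGB the smallest in each extract. At 100 µg/mL FGA and FGG were still above vehicle in every library of the 3 extracts, with 0.08 to 0.14 for FGA and 0.11 to 0.30 for FGG, while FGB overlapped vehicle in each. Of all genes 16%, 18.6% and 25.6% had no overlap in the higher direction at 100 µg/mL with Soshiho-tang, Yijin-tang and Okbyeongpung-san. Called in either direction were 8.03%, 10.3% and 10.2% of all genes at 20 µg/mL and 10.8%, 14.7% and 9.49% at 100 µg/mL, in the same order of extracts. All 9 comparisons use the same 3 vehicle libraries, which differed from the treated ones in depth and mitochondrial share. Counted without mitochondrial genes in the library total, each of the 27 values of the chains against vehicle moved by less than 1 SD of the replicates, and by at most 0.011. That refit checks only the scaling, which already trims genes with extreme changes, so it could move the values little. The parts of depth and of the mitochondrial share were not tested.

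At 500 µg/mL against vehicle, Soshiho-tang gave −0.84 ± 0.05 for FGA, −0.96 ± 0.07 for FGB and −0.52 ± 0.05 for FGG, with vehicle means of 190.1, 223 and 131 CPM. Yijin-tang gave −0.36 ± 0.05, −0.47 ± 0.07 and −0.25 ± 0.05. Libraries of both extracts were below all vehicle libraries in each chain. Okbyeongpung-san gave −0.19 ± 0.05, −0.28 ± 0.08 and −0.02 ± 0.06, and its FGG libraries lay on both sides of those of vehicle, with a log2 fold change of −0.084 to 0.029 when 1 library was left out. FGG was the least below vehicle in all 3 extracts. Of all genes 33.1%, 15.7% and 14.9% were called in these comparisons, and 25%, 19.3% and 18.6% had no overlap in the lower direction.

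The balance between chains within a library was given by the ratios of their counts, which do not depend on the library total. The ratio of FGG to FGA was 0.692 ± 0.00464 in vehicle, and with Soshiho-tang 0.735 ± 0.0192 at 20 µg/mL, 0.771 ± 0.0262 at 100 µg/mL and 0.864 ± 0.0269 at 500 µg/mL (SD, n = 3 each). The Soshiho-tang 500 libraries, at 0.848 to 0.895, were above all other libraries, and vehicle, at 0.687 to 0.696, below all others. With Yijin-tang the ratio was 0.720 ± 0.00788 at 20 µg/mL, 0.704 ± 0.00566 at 100 µg/mL and 0.748 ± 0.0131 at 500 µg/mL. The libraries of 500 µg/mL were above and those of 100 µg/mL below all of 20 µg/mL, so the ratio had no single direction with dose. These differences are described, since an exact two-sided permutation test of 3 against 3 libraries cannot give a p below 0.1. With Okbyeongpung-san the ratio was 0.776 ± 0.0443 at 500 µg/mL, against 0.738 ± 0.0254 at 20 µg/mL (n = 2 each), and the groups overlapped. Soyo-san gave 0.746, 0.760 and 0.733 at 20, 100 and 500 µg/mL. The ratio of FGB to FGA was 1.05 to 1.15 in the means of the replicated treated groups and 1.17 ± 0.0221 in vehicle, and the libraries of 500 and 20 µg/mL overlapped in each extract. Its lowest value was 0.992 in the Soyo-san library at 500 µg/mL.

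**Figure D3:**
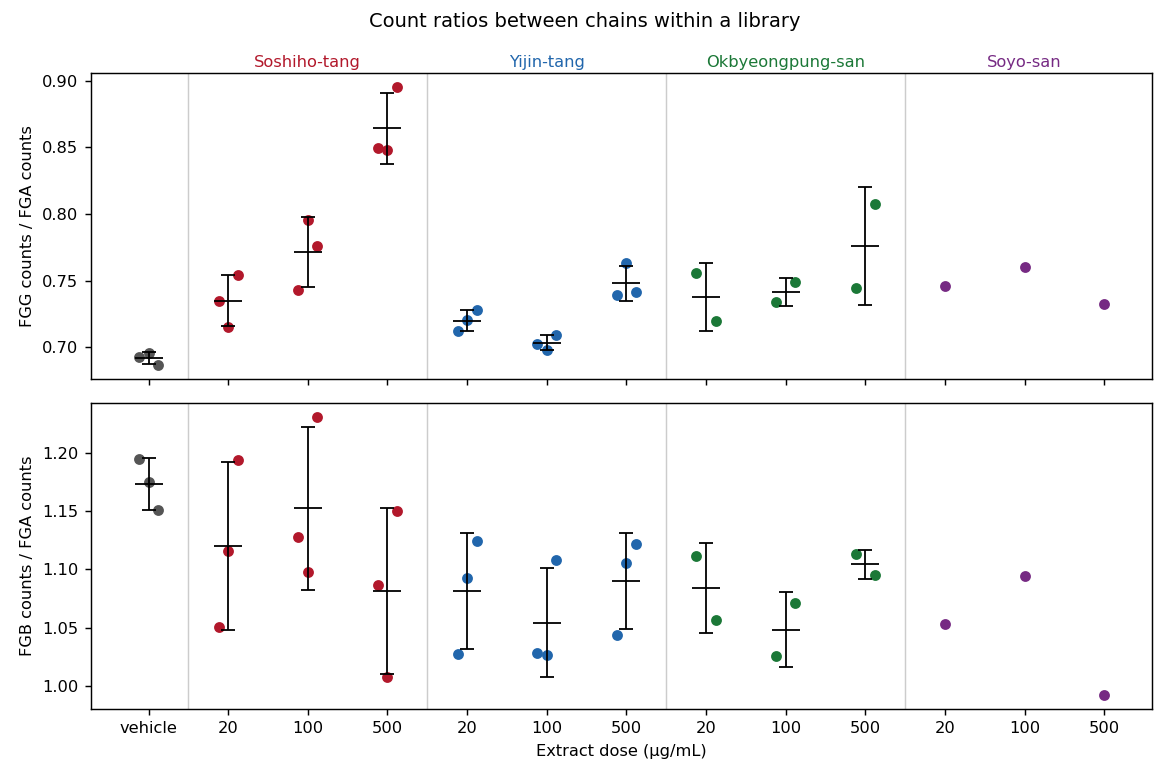
Ratio of FGG to FGA counts (top) and of FGB to FGA counts (bottom) in each library by extract and dose in µg/mL; points are libraries and bars the mean and SD of 2 or 3 libraries. The axes do not start at 0. The 3 Soshiho-tang libraries at 500 µg/mL have the highest FGG to FGA ratios, from 0.848 to 0.895, and the vehicle libraries the lowest.

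Across the 30 libraries the chains were close companions. On log2 CPM with a prior count of 2, FGA and FGB gave a Pearson r of 0.977 (Spearman rho 0.926), FGA and FGG 0.974 (0.972) and FGB and FGG 0.959 (0.906). Of the 17460 other genes ranked by r with each chain, the other chains took the first 2 places for all 3. These values are descriptions, since the libraries share groups, depth differences and vehicle, and the genes were picked as a cluster that moves together. Without the Soshiho-tang 500 and vehicle libraries, which leaves 24, r was 0.958, 0.973 and 0.966 and the first 2 places were again the other chains. Over the 13 group means the other chains held places 2 and 3 for FGA, 2 and 6 for FGB and 1 and 4 for FGG. Without the 2 libraries farthest from the median of FGA, r was 0.963 for FGB and 0.966 for FGG over 28 libraries.

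Within groups the link was looser. After the mean of each group was taken from its libraries, r over 27 libraries was 0.702 for FGA and FGB, 0.752 for FGA and FGG and 0.734 for FGB and FGG. The other chains then held places 3 to 52 among 17460 genes. Without the 2 libraries farthest out, r fell to 0.530 for FGA with FGB and to 0.595 for FGA with FGG.

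**Figure D4:**
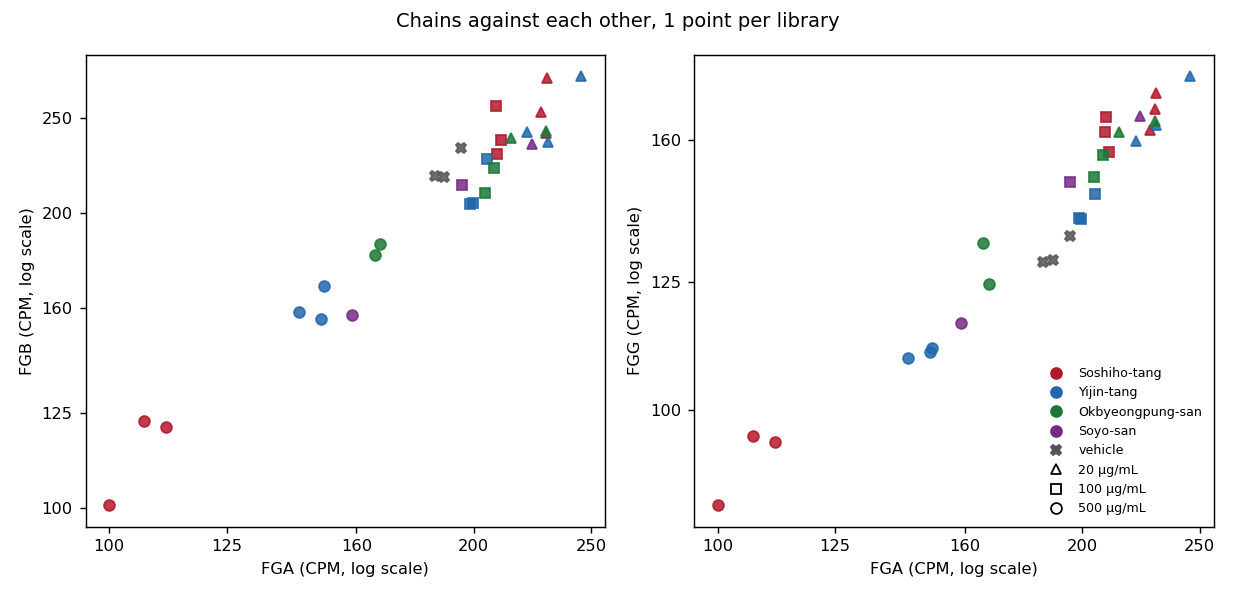
FGB (left) and FGG (right) against FGA, in CPM on log axes, 1 point per library; colour gives the extract and shape the dose, with crosses for vehicle. The Soshiho-tang libraries at 500 µg/mL sit at the lower left and the 20 µg/mL libraries at the upper right, with r of 0.977 and 0.974 over 30 libraries on the log2 CPM scale. Vehicle libraries lie to the upper left of the line of points at left and below it at right.

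The genes around the cluster were read for comparison. Within 1 Mb the table lists 42 other genes, 9 of them protein-coding, and 30 had no count in any library. The 3 that passed the filter were PLRG1, MAP9 and NPY2R. PLRG1, a spliceosome component 12521 bases from FGB, was at 51.2 to 64.5 CPM over the 30 libraries and had an r of −0.06 with the mean of the chains. MAP9, which binds microtubules, lies 729691 bases away and had an r of −0.46. NPY2R, a neuropeptide Y receptor 595662 bases away, had at most 10 counts in a library. None was called between 500 and 20 µg/mL of Soshiho-tang, Yijin-tang or Okbyeongpung-san, where 20.5%, 0.704% and 1.59% of all genes were. Against vehicle, where 33.1% of all genes were called, Soshiho-tang at 500 µg/mL gave higher PLRG1, by 0.18 ± 0.06 (adjusted p = 0.0134), and higher MAP9, by 0.28 ± 0.08 (adjusted p = 0.00927), opposite in sign to the chains.

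Outside the cluster, HNF4A on chromosome 20 had the levels most like those of the chains. It was chosen as the first of 11190 genes with a mean log2 CPM of at least 2, by its r of 0.947 with the mean of the 3 chains over 30 libraries. HNF4A was at 64.9, 57.8 and 60.1 CPM with Soshiho-tang at 500 µg/mL, against 93.1, 97.2 and 93.5 CPM at 20 µg/mL. With Yijin-tang it was at 77.9, 76.6 and 74.2 CPM at 500 µg/mL, against 95.9, 98.4 and 90.2 CPM at 20 µg/mL. Vehicle libraries held 90.8, 93.4 and 87.4 CPM, which the 20 µg/mL libraries of both extracts overlapped. The next were CD24, a surface glycoprotein (r = 0.937), OPN3, an opsin (0.937), MEGF9 (0.935), HEXIM1, an inhibitor of the elongation factor P-TEFb (0.930), KRT4, a keratin (0.9245), CCND3, a cyclin (0.922), INSL4 (0.922), SGK1, a kinase (0.920), and RHPN2 (0.9195). The least like were JUN, an AP-1 subunit (−0.923), STC2, stanniocalcin 2 (−0.915), CBS, cystathionine beta-synthase (−0.906), ASNS, asparagine synthetase (−0.906), and TMEM268 (−0.9045). JUN was at 45.8, 53.9 and 47.4 CPM with Soshiho-tang at 500 µg/mL, against 26.5, 25.8 and 25.2 CPM at 20 µg/mL. The names depended on the measure: over the 13 group means 4 of the 10 most like genes and 1 of the 5 least like were shared with this list, and without vehicle 7 and 3.

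Known regulators of the fibrinogen genes were measured beside them. Of 21 listed factors, receptors and cytokines 19 passed the filter, and none was called between 500 and 20 µg/mL of Yijin-tang or of Okbyeongpung-san, where 0.704% and 1.59% of all genes were. By edgeR 2 and 6 of them had an unadjusted p below 0.05, where 7.76% and 17.6% of all genes did. DESeq2 called 0 and 0 of them. Without replicate 3 of Okbyeongpung-san at 500 µg/mL 8 were called, among 4060 of all genes. IL6, the cytokine itself, had at most 4 counts in a library. CEBPA was at 7.07 ± 0.377 CPM with Yijin-tang at 500 µg/mL and 7.32 ± 0.385 CPM at 20 µg/mL (adjusted p = 0.978). With 1 library left out, its log2 fold change ran from 0.40 to 0.46 with Okbyeongpung-san and from −0.35 to −0.15 with Soshiho-tang. IL6ST, the receptor subunit gp130, was at 243 ± 16.5 CPM with Yijin-tang at 500 µg/mL and 249.8 ± 18.3 CPM at 20 µg/mL (adjusted p = 0.981). With Okbyeongpung-san it ran from −0.53 to −0.0041 on the log2 scale with 1 library left out. With Soshiho-tang, where 10.3% of all genes rose and 10.2% fell between 500 and 20 µg/mL, 5 of the 19 rose and 3 fell, with a median log2 fold change of −0.05, beside 0.0033 over all genes. SOCS3, the feedback inhibitor of STAT3, rose by 0.56 ± 0.07 (adjusted p = 4.329e-06), CEBPB by 0.48 ± 0.16 (adjusted p = 0.0391) and IL11, a cytokine of the interleukin-6 family, by 0.48 ± 0.09. STAT3 fell by 0.29 ± 0.04 (adjusted p = 1.734e-05), CEBPD by 0.57 ± 0.12 and NR3C1, the glucocorticoid receptor, by 0.28 ± 0.07. LIF and OSMR also rose. CEBPB lost its call in some fits without 1 library, with adjusted p up to 0.189. HNF4A, counted with the hepatocyte markers, fell by 0.63 ± 0.06 with Soshiho-tang (adjusted p = 7.953e-09) and by 0.32 ± 0.06 with Yijin-tang (adjusted p = 0.00312), and gave −0.22 ± 0.07 with Okbyeongpung-san (adjusted p = 0.0977). It was also the first gene by likeness to the chains over these libraries, and its p-values are no independent support.

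Between 500 and 20 µg/mL other acute phase genes were called in the main fit only with Soshiho-tang. Of 29 listed genes 15 passed the filter, and 14 did not, among them CRP, which had no count, SAA1, with at most 4 counts, and HP, haptoglobin, with at most 6. Between 500 and 20 µg/mL none was called with Yijin-tang (median −0.08, beside 0.0017 over all genes) or with Okbyeongpung-san (median 0.15, beside −0.0039). DESeq2 also called none, while 1 and 4 had an unadjusted p below 0.05, where 7.76% and 17.6% of all genes did. Of all genes 0.704% and 1.59% were called there. The edgeR count with Okbyeongpung-san was higher without replicate 3 at 500 µg/mL, as over all genes. With Soshiho-tang 2 rose and 4 fell, where 10.3% of all genes rose and 10.2% fell, with a median of −0.19, and the 6 calls became 3 in the lowest fit without 1 library. CP, the copper carrier ceruloplasmin, fell to 7.86 ± 1.84 CPM at 500 µg/mL, against 16.4 ± 2.94 CPM at 20 µg/mL, and TF, transferrin, whose level drops in the acute phase, to 0.314 ± 0.0987 CPM, against 0.797 ± 0.197 CPM. The complement genes C3 and C1S fell by 0.30 ± 0.08 and 0.26 ± 0.06. SERPINA3, antichymotrypsin, rose by 0.87 ± 0.31 (adjusted p = 0.0454) and ITIH4 by 1.22 ± 0.37 (adjusted p = 0.0196), both with means under 3 CPM. TF, SERPINA3 and ITIH4 each lost the call in some fits without 1 library, with adjusted p up to 0.0595, 0.130 and 0.0936.

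The other genes of clotting and clot lysis were read next. Of 37 genes 25 passed the filter. None was called between 500 and 20 µg/mL of Yijin-tang or Okbyeongpung-san, with medians of −0.06 and 0.03, and DESeq2 called 1 and 2. An unadjusted p below 0.05 was found for 3 and 7, where 7.76% and 17.6% of all genes had one. Of all genes 0.704% and 1.59% were called in these comparisons. The edgeR count with Okbyeongpung-san was higher without replicate 3 at 500 µg/mL, as over all genes. With Soshiho-tang 7 rose and 4 fell, where 10.3% of all genes rose and 10.2% fell, with a median of −0.03. PLAU, the urokinase-type plasminogen activator, rose to 87.3 ± 6.02 CPM at 500 µg/mL, against 52.2 ± 2.68 CPM at 20 µg/mL. THBD, thrombomodulin, rose by 0.59 ± 0.05, F8, clotting factor VIII, by 0.63 ± 0.13, and the thrombin receptor F2R by 0.33 ± 0.05. The other risen genes were SERPINE2, PLAUR and F2RL1. PROC, protein C, at 0.884 to 2.40 CPM in treated libraries, fell by 0.73 ± 0.17, and PROCR, S100A10 and VKORC1 fell by less. F2, prothrombin, was at 2.98 to 5.27 CPM in treated libraries, and F13A1, a subunit of the enzyme that cross-links fibrin, had at most 1 count.

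Genes for assembly, secretion and binding of fibrinogen completed the lists. Of 14 genes of chain folding and export edgeR and DESeq2 called none with Yijin-tang or Okbyeongpung-san, where 0.704% and 1.59% of all genes were. An unadjusted p below 0.05 was found for 1 and 1 of them, where 7.76% and 17.6% of all genes had one. The number called with Okbyeongpung-san was higher without replicate 3 at 500 µg/mL, as over all genes. With Soshiho-tang 3 rose, where 10.3% of all genes did. HSPA5, the chaperone BiP, rose to 952 ± 30.4 CPM at 500 µg/mL, against 636.5 ± 9.72 CPM at 20 µg/mL, while HSP90B1 and SSR1 rose by 0.13 ± 0.04 and 0.23 ± 0.05. Of 12 measured receptors and partners, with Soshiho-tang ICAM1, a leukocyte adhesion molecule that binds fibrinogen, rose by 1.25 ± 0.25, ITGB1 by 0.22 ± 0.06 and ITGA5 by 0.18 ± 0.05, while VTN, vitronectin, fell by 0.57 ± 0.09 and FN1, fibronectin, by 0.29 ± 0.10, where 20.5% of all genes were called. These 5 calls became 3 in the lowest fit without 1 library, and ICAM1 stood at only 0.341 to 2.22 CPM in treated libraries. With Okbyeongpung-san only ITGA5 of these was called, rising by 0.35 ± 0.06 (adjusted p = 0.0047), and the call did not hold in every fit without 1 library. More were called without replicate 3 at 500 µg/mL, as over all genes. With Yijin-tang none was called, and DESeq2 called 1. There 2 had an unadjusted p below 0.05, where 7.76% of all genes did. With 1 library left out, the Soshiho-tang calls of HSP90B1, ITGB1, ITGA5 and FN1 were lost in some fits, with adjusted p up to 0.129, 0.0506, 0.0818 and 0.270. Of 7 measured members of the wider family with a fibrinogen domain none was called by edgeR in the 3 comparisons. DESeq2 called 0, 0 and 1 with Soshiho-tang, Yijin-tang and Okbyeongpung-san. In that order 1, 0 and 1 had an unadjusted p below 0.05, where 32.1%, 7.76% and 17.6% of all genes did. The edgeR count with Okbyeongpung-san was higher without replicate 3 at 500 µg/mL, as over all genes. FGL1, a relative secreted by hepatocytes, was at 10.6 ± 0.905 CPM with Yijin-tang at 500 µg/mL and 11.6 ± 1.3 CPM at 20 µg/mL (adjusted p = 0.872).

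Glucocorticoid receptor targets went both ways. Of 11 measured, 2 fell with Yijin-tang at 500 against 20 µg/mL, with a list median of −0.07, where 0.418% of all genes fell. KLF9, a zinc finger factor, fell to 4.55 ± 0.307 CPM, against 6.76 ± 0.879 CPM (adjusted p = 0.00195), and SGK1 to 46.3 ± 2.88 CPM, against 57.9 ± 3.03 CPM (adjusted p = 0.00383). With Soshiho-tang both fell too, by 0.56 ± 0.10 and 0.50 ± 0.06, together with CEBPD and FKBP5, while TSC22D3 rose by 1.74 ± 0.09, DUSP1 by 0.61 ± 0.06, and ERRFI1 and BIRC3 by less. These are 8 calls of 11, where 20.5% of all genes were called. The Yijin-tang calls were lost with only the compared groups in the fit (adjusted p = 0.112 for KLF9 and 0.0903 for SGK1). With Okbyeongpung-san edgeR called none and DESeq2 called 2, where edgeR called 1.59% of all genes. An unadjusted p below 0.05 was found for 4, where 17.6% of all genes had one. The edgeR count was higher without replicate 3 at 500 µg/mL, as over all genes.

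**Figure D5:**
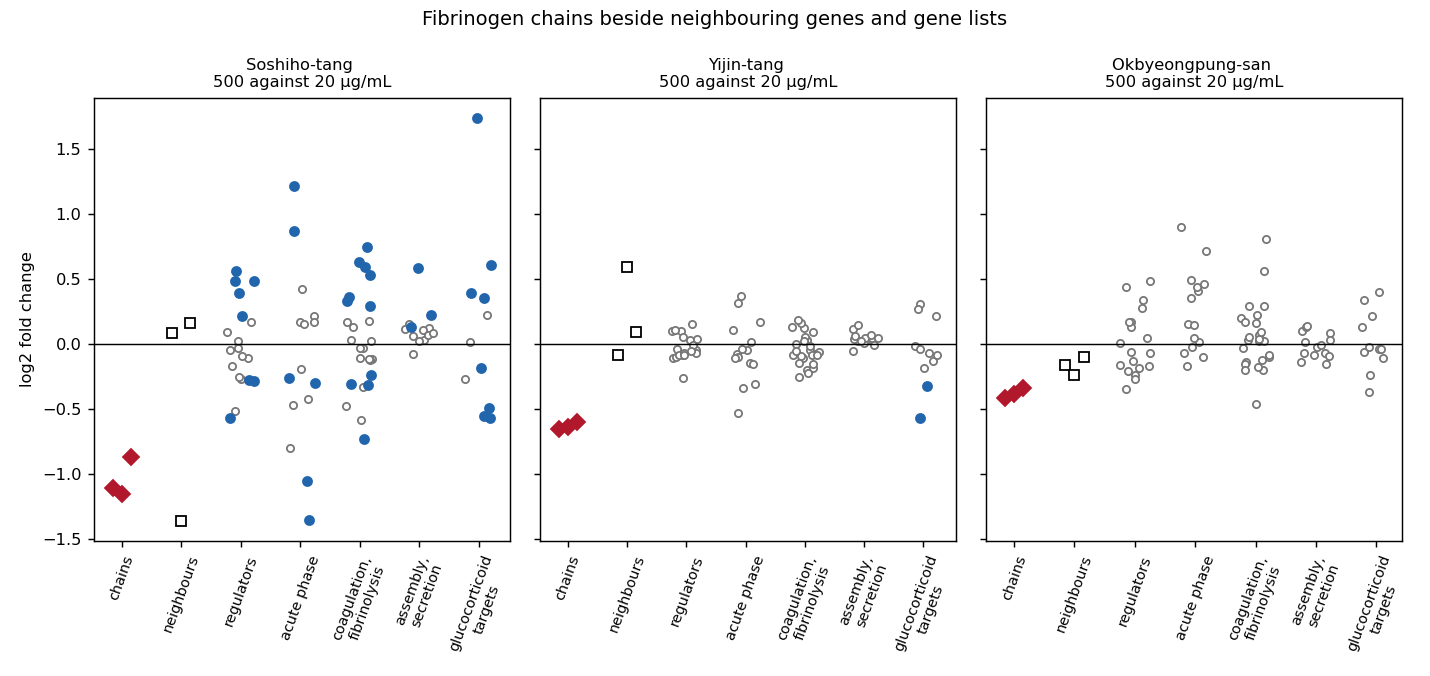
Log2 fold change between 500 and 20 µg/mL of Soshiho-tang, Yijin-tang and Okbyeongpung-san for the fibrinogen chains (red), the fitted genes within 1 Mb (squares) and the members of 5 gene lists (circles, filled where called at an adjusted p below 0.05). With Yijin-tang the chains lie at −0.65 to −0.60, below all listed genes drawn, and the 2 filled circles are KLF9 and SGK1; no circle is filled with Okbyeongpung-san.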

How the data were processed

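RNA of A549 cells was made into directional mRNA libraries, per the labels' protocols. The authors deposited 1 table of expected counts per gene. RSEM 1.3.3, STAR 2.7.3a, FastQC 0.11.9, Trim Galore 0.6.5 and the build hg38 (GRCh38) are named, per the submitters' processing notes. The annotation release and strand setting are not given in the sources used here. Expected counts need not be whole, and 9.09% to 11.6% of a library's values were not. They were rounded. Columns were matched to libraries by the library names in the sample descriptions, and groups were read from the titles. The 30 empty columns were left out. Names came from GENCODE release 29.

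Genes were kept by edgeR's filterByExpr, scaled by TMM and fitted with edgeR 4.0.16 in R 4.3.3 by quasi-likelihood over 27 libraries, those of the 10 groups that hold 2 or more. The threshold was 0.05 on p-values adjusted by Benjamini-Hochberg over 17461 genes. SE is the absolute log2 fold change over the square root of F. Soyo-san, with 1 library a dose, entered no fit. CPM used TMM-adjusted totals. Correlations used edgeR's log2 CPM, with a prior count of 2 scaled to library size. Tables were handled in Python 3.11.15 (numpy 2.4.6, scipy 1.17.1, pandas 2.3.3). The fit was checked on simulated counts.

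The chains and lists were chosen with earlier results of these data known. Every comparison with vehicle, between doses of an extract or with Soshiho-tang at 500 µg/mL is therefore described for the chains without a p, which leaves 7 of 24 comparisons tested, beside 4 differences of fold changes between extracts. In each list up to 4 called genes were to be named by size, or all where at most 5 were called, and members with no call were chosen after their values were seen. The 10 genes most like and 5 least like the chains were named by Pearson r. Samples with the same replicate number were compared by the correlation of their deviations from the group means. Between Yijin-tang at 100 and 20 µg/mL r was 0.305, 0.121 and 0.206 for replicates 1, 2 and 3. No other pair of groups had every r as high as the lowest of these. The numbers entered only the fit with a replicate block, and the other values between these doses take no account of them. Some listed genes and motif letters are not reported here. Other treatments named in the series text were not analysed here. Alternatives were DESeq2 1.42.0, other scalings, no filter on low counts, a replicate block, batch D left out, only the compared groups in the fit, and each library left out in turn.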

Additional observations from a re-analysis of the deposited data

How the results depend on the processing

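For the chains, 433 of 459 alternative values of tested comparisons kept their direction and their side of the threshold, 12 changed sign, 8 lost a call and 6 gained one. Of 606 alternative values of described comparisons 604 moved by less than 1 SD of the replicates. The exceptions were FGA (−0.35) and FGB (−0.34) between 500 and 20 µg/mL of Okbyeongpung-san without batch D. FGG with Okbyeongpung-san at 500 µg/mL against vehicle, −0.02, changed sign within that SD, at 0.0072 without the filter on low counts and at 0.029 in a fit without 1 library. Other scalings moved the median of all genes by at most 0.0118 on the log2 scale. The cause of these changes was not tested.

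Adjusted p are from edgeR, save where DESeq2 is named. Without the filter on low counts, FGG was not called between Yijin-tang and Okbyeongpung-san at 500 µg/mL (−0.23, adjusted p = 0.0590). There, without batch D, FGA was called (−0.20, adjusted p = 0.0303) and FGG was not (−0.19, adjusted p = 0.0591), and at 100 µg/mL FGB changed sign (0.017, adjusted p = 1). With only the compared groups in the fit, FGG was not called between Yijin-tang and Okbyeongpung-san at 500 µg/mL (−0.23, adjusted p = 0.577). DESeq2 called FGA between Yijin-tang and Okbyeongpung-san at 500 µg/mL (−0.18, adjusted p = 0.0117) and the FGA difference of the 500 against 20 µg/mL fold changes between Yijin-tang and Okbyeongpung-san (−0.24, adjusted p = 0.0378).

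With the replicate number as a block, FGA was called between Yijin-tang and Okbyeongpung-san at 500 µg/mL (−0.18, adjusted p = 0.0306), and the genes called there numbered 622, against 404 without the block. The block changed no other call of a chain. Between Yijin-tang at 100 and 20 µg/mL, where same-numbered libraries deviated together, the block moved each chain by less than 1 SD.

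With 1 library left out at a time, log2 fold changes between Yijin-tang and Okbyeongpung-san ran from −0.20 to −0.16 for FGA and from −0.28 to −0.17 for FGG at 500 µg/mL, from −0.081 to 0.018 for FGB at 100 µg/mL, and from −0.0098 to 0.10 for FGB and −0.020 to 0.062 for FGG at 20 µg/mL. Between Soshiho-tang and Yijin-tang at 20 µg/mL they ran from −0.055 to 0.018 for FGA, −0.021 to 0.099 for FGB and −0.026 to 0.056 for FGG, and between Soshiho-tang and Okbyeongpung-san from −0.010 to 0.090 for FGA. The FGA difference of fold changes between Yijin-tang and Okbyeongpung-san ran from −0.29 to −0.18 for 500 against 20 µg/mL, and that between Soshiho-tang and Okbyeongpung-san from −0.070 to 0.030 for 100 against 20 µg/mL. Of the other named genes between 500 and 20 µg/mL, none of which was called, IL6R (−0.017 to 0.28), NR3C1 (−0.30 to 0.020) and MAP9 (−0.24 to 0.026) changed sign with Okbyeongpung-san, IL6ST (−0.10 to 0.014) and NR3C1 (−0.032 to 0.080) with Yijin-tang, and IL6ST (−0.11 to 0.032) with Soshiho-tang.

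Between 500 and 20 µg/mL of Yijin-tang the 123 genes became 237 without the filter and 54 with only the compared groups. For Okbyeongpung-san the 278 became 918 without the filter, 1428 without batch D, 512 by DESeq2 and 0 with only the compared groups. Between Yijin-tang and Okbyeongpung-san at 500 µg/mL the 404 became 924 without the filter, 3709 without batch D and 3 with only the compared groups. The 28 genes whose 500 against 20 µg/mL change differed between these extracts became 449 without the filter, 44 with the replicate block, 617 without batch D, 100 by DESeq2 and 4 with only the compared groups. Between 100 and 20 µg/mL the 0, 4 and 0 genes called with Soshiho-tang, Yijin-tang and Okbyeongpung-san became 61, 90 and 46 without the filter. Against vehicle, the 1773, 1657 and 2610 genes called with Okbyeongpung-san at 20, 100 and 500 µg/mL became 507, 732 and 4015 without batch D and 4647, 4578 and 436 with only the compared groups. With only the compared groups, the 1402 with Soshiho-tang at 20 µg/mL became 2991 and the 2737 with Yijin-tang at 500 µg/mL became 4260. The 3265 between Soshiho-tang and Okbyeongpung-san at 500 µg/mL became 5057 without batch D and 608 with only the compared groups. With 1 library left out, the 278 of Okbyeongpung-san ran from 39 to 4060, the 404 from 39 to 4132, the 28 from 10 to 2553 and the 123 of Yijin-tang from 70 to 108. The highest of the first 3 came without replicate 3 of Okbyeongpung-san at 500 µg/mL. That also held for the 2610 against vehicle (1224 to 4322) and the 3265 (1212 to 5442), whose lowest values came without replicate 2. The other counts against vehicle fell as far as 193 of 1657 and 260 of 1773 with Okbyeongpung-san at 100 and 20 µg/mL, 559 of 1790, 1234 of 2567 and 1614 of 2737 with Yijin-tang at 20, 100 and 500 µg/mL, and 513 of 1402 and 682 of 1879 with Soshiho-tang at 20 and 100 µg/mL. The 2200 between Soshiho-tang and Yijin-tang at 500 µg/mL fell as far as 1363, and the 4 with Yijin-tang at 100 µg/mL as far as 1. The names of genes most and least like the chains depended on the measure, since by Spearman rho 3 of the 10 and 2 of the 5 were shared. Depth did not limit the chains, whose lowest value in a library was 2398 counts.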
